A study of Mus musculus with 6 samples.

Results

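The genes described here encode secreted matricellular proteins, together with pleiotrophin, in mammary glands of female bitransgenic mice at 10 and 5 weeks of age. They were the 10 genes Thbs1, Thbs2, Thbs4, Sparc, Postn, Tnc, Spp1, Fstl1, Ptn and Sned1. Members were the probe sets whose only gene symbol in the platform annotation was one of these names. That rule found 18 of the 45037 probe sets that were not controls, for 9 of the 18193 genes on the array, and Spp1 was not analysed here. The genes were chosen on their signal differences between 10 and 5 weeks, so that difference is given below as a description, without a test. Mice of both ages carried the transgenes of 2 parent lines, the LH mouse, a name that the labels do not spell out, and the MMTV-neu mouse. In the MMTV-neu line the promoter of the mouse mammary tumour virus, active mainly in mammary epithelium, drives the neu (Erbb2) oncogene. No mouse without these transgenes was analysed here. At 10 weeks as at 5 weeks there were 3 arrays, hybridised with 1 pool of 3 animals each, so that 9 animals stood for an age.

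Matricellular proteins are secreted into the extracellular matrix but serve less as scaffold than as signals. They bind collagens, growth factors and cell surface receptors such as integrins, CD36, CD47 and syndecans, and they change how cells adhere, migrate and respond to growth factors. In the mammary gland, ducts grow through fat and fibrous stroma during puberty, when the matrix around them is remodelled. Fibroblasts are a main source of these proteins, and tenascin-C is known from the stroma of growing ducts and of mammary tumours. Pleiotrophin is a heparin-binding growth factor that signals through the receptor phosphatase PTPRZ1, syndecans and, as reported in human cells, ALK.

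At 10 weeks 8 of the 9 measured genes had lower signals and Tnc had higher ones. The lower genes ran from Sparc, with a log2 difference of -0.52 ± 0.09 (SE), to Sned1, with -5.03 ± 0.21 (SE). With the brightest probe set of each of the 9 genes, the median log2 difference was -1.53, where the median of all 13002 genes tested was 0. Of the 18 probe sets, 14 had all 10-week pools below all 5-week pools, 2 had them all above, and in 2 the ages overlapped. Over all 27022 probe sets tested, 22.6% lay wholly lower at 10 weeks and 22.4% wholly higher. Of the 18 probe sets 17 passed the filter on low signals, and those of Sned1, Thbs4 and Ptn 1416211_a_at, dim in all 10-week pools, passed through their 5-week signals. These counts follow from how the genes were picked and are not read further. In whole glands, fewer cells of a type and less RNA per cell cannot be told apart.

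**Figure D1:**
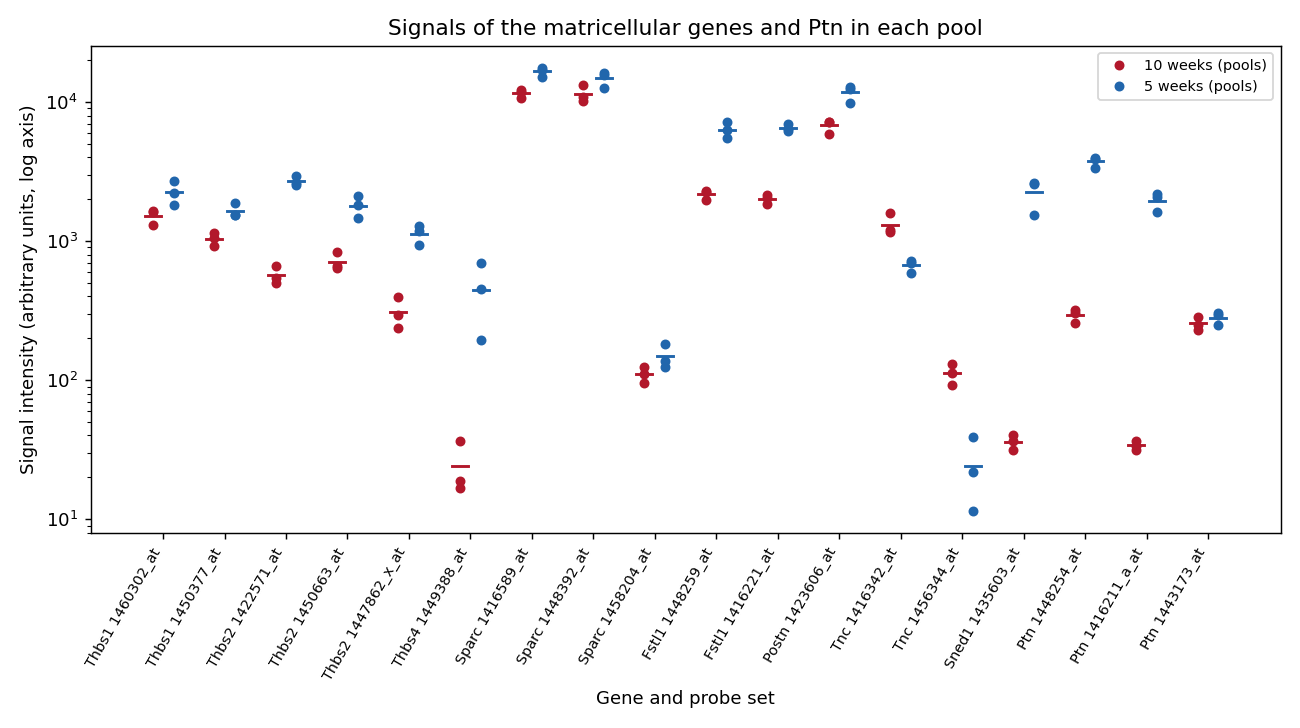
Signal intensity (log axis) of each of the 18 probe sets, with a point for each pool and a bar at the mean of 3 pools, at 10 weeks (red) and 5 weeks (blue). The largest gaps between means are those of Sned1 and Ptn 1416211_a_at, 62.6-fold and 57.5-fold, followed by Thbs4 and Ptn 1448254_at, 18.6-fold and 12.7-fold. Ptn 1443173_at shows overlapping ages, and both Tnc probe sets sit higher at 10 weeks.

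The promoters of the genes with the largest differences, and that of Tnc, which differed the other way, are printed for comparison. Each runs 5′ to 3′ on the gene's strand, from 250 bases before to 50 after the transcription start, in RefSeq's GRCm38.p6. Windows were found for 8 of the 9 measured genes. Capitals mark a hexamer of the core promoter, TATAAA, on either strand. They also mark the motif bound by Sp1 and its relatives, GGGCGG, and no 2 of these matches overlapped.
Sned1 promoter, chr1:93235647-93235946, plus strand: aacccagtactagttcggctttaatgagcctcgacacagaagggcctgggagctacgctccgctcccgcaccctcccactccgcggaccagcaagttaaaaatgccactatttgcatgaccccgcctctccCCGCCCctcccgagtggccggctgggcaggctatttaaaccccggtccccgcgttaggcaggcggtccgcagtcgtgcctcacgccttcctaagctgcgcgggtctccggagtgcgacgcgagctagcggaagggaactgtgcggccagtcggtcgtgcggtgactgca
Ptn promoter, chr6:36810130-36810429, minus strand: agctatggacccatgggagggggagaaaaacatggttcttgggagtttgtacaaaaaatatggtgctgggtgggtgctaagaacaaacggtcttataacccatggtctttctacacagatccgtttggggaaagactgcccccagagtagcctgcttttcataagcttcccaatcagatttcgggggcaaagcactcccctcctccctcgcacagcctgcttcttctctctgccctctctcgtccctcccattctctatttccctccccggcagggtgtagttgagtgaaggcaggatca
Thbs4 promoter, chr13:92794769-92795068, minus strand: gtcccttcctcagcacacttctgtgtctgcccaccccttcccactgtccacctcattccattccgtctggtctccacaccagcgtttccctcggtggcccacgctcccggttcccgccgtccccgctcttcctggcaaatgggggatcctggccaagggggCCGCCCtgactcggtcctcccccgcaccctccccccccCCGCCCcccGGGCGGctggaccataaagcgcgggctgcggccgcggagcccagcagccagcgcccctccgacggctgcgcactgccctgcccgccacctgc
Thbs2 promoter, chr17:14694213-14694512, minus strand: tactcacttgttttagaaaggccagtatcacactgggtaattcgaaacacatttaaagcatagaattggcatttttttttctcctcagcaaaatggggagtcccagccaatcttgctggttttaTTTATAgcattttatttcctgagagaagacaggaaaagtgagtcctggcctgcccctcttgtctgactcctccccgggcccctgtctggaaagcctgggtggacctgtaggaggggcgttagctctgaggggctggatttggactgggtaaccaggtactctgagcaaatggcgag
Tnc promoter, chr4:64046966-64047265, minus strand: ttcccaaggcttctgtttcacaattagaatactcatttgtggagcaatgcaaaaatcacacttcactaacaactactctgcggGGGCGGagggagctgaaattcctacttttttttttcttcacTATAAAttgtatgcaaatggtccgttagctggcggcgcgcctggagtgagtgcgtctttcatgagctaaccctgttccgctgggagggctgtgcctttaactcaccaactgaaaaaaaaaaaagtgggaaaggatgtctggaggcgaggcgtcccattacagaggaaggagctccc

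The 8 genes had 10 windows, because Postn and Tnc have 2 starts each. The 2 Tnc windows overlap, so the same Tnc matches count in both. TATAAA was found in 4 of the 10 windows and in 13.6% of all 32851 promoter windows. These 4 belong to 3 of the 8 genes, which were Thbs2, Postn and Tnc. GGGCGG was found in 5 of the 10 windows and in 35.7% of all windows. These 5 belong to 4 of the 8 genes, which were Sned1, Thbs4, Fstl1 and Tnc. The AP-1 motif TGANTCA, the SMAD palindrome GTCTAGAC and the CArG box of serum response factor were in none of the 10 windows. They were in 7.81%, 0.213% and 1.63% of all windows. The G and C content was 72.0% for Thbs4, 64.3% for Sned1, 52.0% for Ptn and 48.3% for Thbs2, where the middle of all windows ran from 45.7% to 61.7% (quartiles). No motif searched was in the windows of all 4 of these genes.

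Sned1, an extracellular matrix glycoprotein with nidogen-like, EGF-like and fibronectin type III domains, had the largest difference. Its single probe set, 1435603_at, had signals of 31.3, 40.1 and 36.7 in the 10-week pools, against 2636.2, 2584.1 and 1542.5 in the 5-week pools. All 10-week values lay under the first quartile of their arrays (47.3 to 50.6), so the gene was near the dim end at 10 weeks, and the 5-week pools were all far above. The mean was 36.0 ± 4.44 at 10 weeks and 2254 ± 617 at 5 weeks (SD, n = 3 each). Because the 10-week signal is so dim, the size of the difference follows the offset of 32 that was added before the logarithm. It was -5.89 with an offset of 1 and -4.08 with an offset of 100.

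Ptn, the pleiotrophin gene, was measured by 3 probe sets that did not give the same picture. Probe set 1448254_at had 317.7, 257.5 and 304.5 in the 10-week pools, against 3881.8, 3972.9 and 3357.3 in the 5-week pools, a log2 difference of -3.54 ± 0.12 (SE). Probe set 1416211_a_at, annotated with the same accession, had 31.7, 36.6 and 33.4 at 10 weeks, against 2062.7, 2168.8 and 1617.7 at 5 weeks, a difference of -4.90 ± 0.16 (SE). In both, the ages lay far apart. The difference of the second one was -5.80 with an offset of 1 and -3.93 with 100, since its 10-week signals were again under the first quartile of their arrays. Probe set 1443173_at, annotated from the separate accession AV296474, had 286.7, 229.4 and 250.4 at 10 weeks, against 304.2, 293.0 and 247.3 at 5 weeks. Here the ages overlapped, and the difference was -0.13 ± 0.15 (SE). Why this probe set departs from the other two was not tested.

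Of the thrombospondins, large calcium-binding glycoproteins, Thbs2 was lower at 10 weeks in all 3 of its probe sets. Thbs2 encodes a trimeric thrombospondin known to restrain angiogenesis and to affect collagen fibril assembly. Its brightest probe set, 1422571_at, had 664.2, 545.2 and 495.7 in the 10-week pools, against 2918.1, 2513.9 and 2623.7 in the 5-week pools, a log2 difference of -2.19 ± 0.13 (SE). The other two probe sets had differences of -1.30 ± 0.16 (1450663_at) and -1.78 ± 0.19 (1447862_x_at, SE). In all of them the 10-week pools lay below the 5-week pools, while the size differed by more than the standard errors.

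Thbs1, the trimeric relative that binds CD36 and CD47 and can activate latent TGF-beta, had a smaller difference. Probe set 1460302_at had 1304.7, 1615.4 and 1636.5 in the 10-week pools, against 2235.6, 1812.2 and 2723.2 in the 5-week pools, a log2 difference of -0.55 ± 0.16 (SE). The pools of the ages did not overlap, but the lowest 5-week value was close to the highest 10-week one. Probe set 1450377_at gave -0.66 ± 0.13 (SE). Leaving out 1 pool at a time moved the value of the first between -0.70 and -0.41.

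Thbs4, a pentameric thrombospondin known from skeletal muscle, tendon and heart, was spread widely between the 5-week pools. Its single probe set had 18.8, 36.4 and 16.8 in the 10-week pools, against 449.8, 195.3 and 697.1 in the 5-week pools. The ages did not overlap, all 10-week values were under the first quartile of their arrays, so no order is read among them, and the coefficient of variation was 56.1% at 5 weeks. The log2 difference of -2.96 ± 0.38 (SE) became -4.06 with an offset of 1 and -2.03 with 100. Without 1 pool at a time it ran from -3.42 to -2.58.

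Sparc, also called osteonectin, is a collagen-binding glycoprotein, and it shares a follistatin-like domain with Fstl1, the gene of follistatin-like 1. Fstl1 had 1967.6, 2295.1 and 2242.3 in the 10-week pools, against 7132.2, 6321.0 and 5519.9 in the 5-week pools, for probe set 1448259_at. Its log2 difference was -1.53 ± 0.12 (SE), and the second probe set gave -1.68 ± 0.10 (SE). The pools of each age lay close together, with coefficients of variation of 8.11% at 10 weeks and 12.7% at 5 weeks in the first probe set. Sparc was very bright, with 10705.5, 12230.3 and 11903.5 at 10 weeks, against 17124.4, 17549.4 and 15199.1 at 5 weeks, for probe set 1416589_at. This is a difference of -0.52 ± 0.09 (SE), and the 5-week pools were all higher. The second bright probe set, 1448392_at, gave -0.37 ± 0.13 (SE) with overlapping ages. The dim probe set 1458204_at had 111.1, 95.0 and 124.3 at 10 weeks, against 124.5, 182.6 and 136.5 at 5 weeks. The highest signals of any probe set were 22312.4, 19916.9 and 21221.0 in the 10-week pools, against 19161.7, 20275.8 and 15339.6 in the 5-week pools. The bright Sparc probe sets thus lay closer to the top of the range at 5 weeks than at 10 weeks.

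Postn, the periostin gene, encodes a fasciclin-domain protein that binds collagen and integrins. Its single probe set had 7244.3, 5905.3 and 7207.0 in the 10-week pools, against 12492.1, 12784.5 and 9856.0 in the 5-week pools. The ages did not overlap, and the log2 difference was -0.78 ± 0.13 (SE).

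Tnc encodes tenascin-C, a large multi-armed glycoprotein that counters cell adhesion to fibronectin, and it ran opposite to the other measured genes. Probe set 1416342_at had 1582.4, 1154.9 and 1198.4 in the 10-week pools, against 591.9, 697.3 and 716.5 in the 5-week pools. All 10-week pools were higher, by a log2 difference of 0.93 ± 0.15 (SE). The dim probe set 1456344_at, the only one of the 18 that did not pass the filter on low signals, had 131.2, 112.8 and 92.1 at 10 weeks, against 11.5, 22.0 and 38.9 at 5 weeks. It was also higher in every 10-week pool, by 1.38 ± 0.24 (SE, from the fit without the filter).

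**Figure D2:**
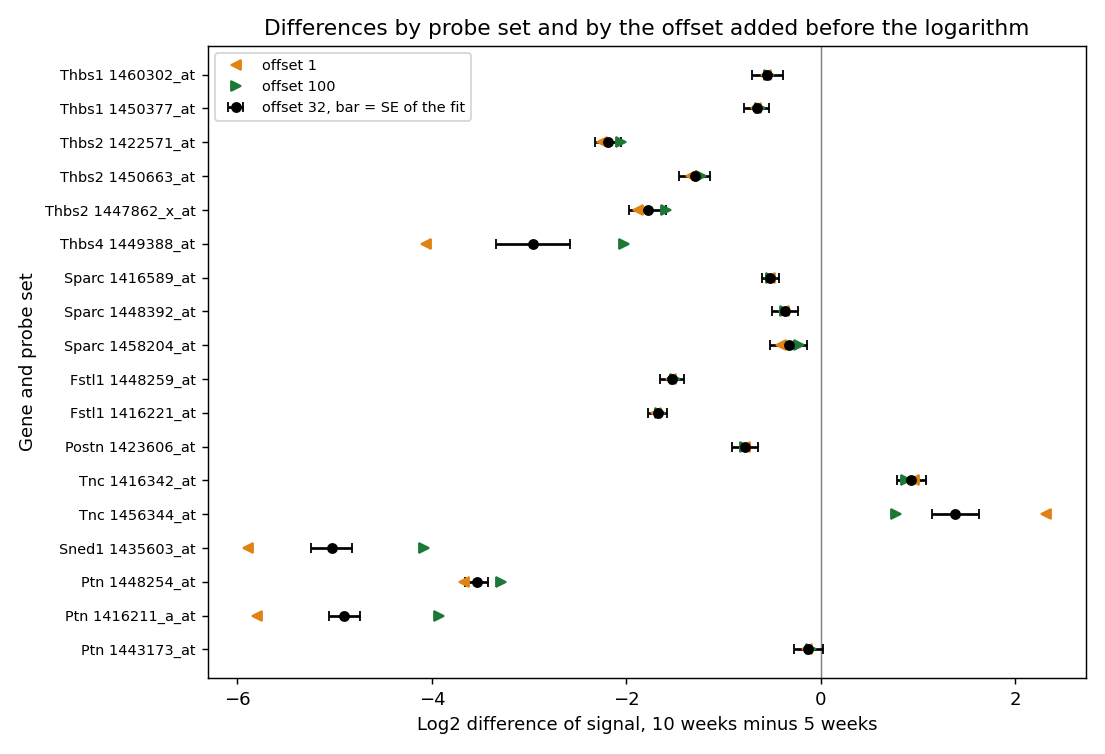
Log2 difference of signal, 10 weeks minus 5 weeks, for each probe set with the offset of 32 (black, bar = SE of the fit) and with offsets of 1 and 100 (triangles). The values for Sned1, Thbs4, Ptn 1416211_a_at and Tnc 1456344_at move with the offset, for example from -5.89 to -4.08 for Sned1, while those of bright probe sets such as Fstl1 and Postn hardly do.

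Marker genes of other cell types were set beside these values. Over all genes tested, 18.7% fell and 15.3% rose. Of 11 fibroblast markers measured, 10 fell at 10 weeks and none rose, with summed signals of 56072 to 63207 at 10 weeks and 90101 to 104920 at 5 weeks. Thy1, a surface glycoprotein of fibroblasts, had the largest difference among them, with 1377 ± 21.9 at 10 weeks and 4031 ± 317 at 5 weeks (SD, n = 3 each), a log2 difference of -1.53 (limma adjusted p = 4.16e-05). Of 8 luminal epithelial markers, 6 rose and none fell, and their summed signals were 59002 to 68023 at 10 weeks and 31750 to 40423 at 5 weeks. The count of luminal markers that rose ran from 5 to 8 over all settings, and none fell in any of them. Endothelial markers fell in 6 of 8 cases and none rose, with sums of 5719 to 7392 at 10 weeks and 8308 to 9943 at 5 weeks. The largest of these differences was that of Flt1, a VEGF receptor gene (-1.09, limma adjusted p = 0.00499), with -0.72 for the mean of its probe sets (adjusted p = 0.0121). Endothelial markers that fell numbered 4 without 10-week pool 1. Adipocyte markers fell in 3 of 7 cases and none rose, with sums of 47101 to 55793 at 10 weeks and 55592 to 67195 at 5 weeks, and the lipid droplet gene Cidec differed most (-1.44, limma adjusted p = 0.00167). The adipocyte markers not called were Adipoq (-0.22), Retn (-0.49), Fabp4 (-0.04) and Lpl (0.06), with 1 of the 2 Lpl probe sets called lower. With quantile normalization 5 adipocyte markers fell. Of 5 Schwann cell and nerve genes measured, 4 fell and 1 rose, with sums of 10487 to 11952 at 10 weeks and 14435 to 17694 at 5 weeks. Ngfr, the low-affinity neurotrophin receptor gene, had -2.63 (limma adjusted p = 6.62e-05). Sox10, the 1 that rose, had 1.62 (limma adjusted p = 4.78e-05), with 3 of its 3 probe sets called higher. It had 7663.7, 6352.8 and 6383.3 at 10 weeks, against 2383.9, 2178.1 and 1995.1 at 5 weeks. Sox10 thus made up most of the 10-week sums, which mix both directions. The part of fibroblasts, fat, vessels or nerve in the differences of the matricellular genes was not tested.

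Of 16 skeletal muscle markers, 8 fell and none rose by limma, with 15 lower and 0 higher at an unadjusted p under 0.05, and their summed signals were 8568 to 67342 at 10 weeks and 85684 to 167162 at 5 weeks. Their mean log2 signals were 8.57, 11.63 and 11.58 in the 10-week pools, against 13.05, 12.06 and 13.28 in the 5-week pools. Among the 5-week pools, Thbs4 and the muscle list were both lowest in pool 2 and highest in pool 3. Among the 10-week pools the muscle list was far lower in pool 1. The count of 8 became 0 by limma with a robust variance model, without 5-week pool 1 and without 5-week pool 3, where 2, 9 and 7 markers were lower at an unadjusted p under 0.05. It became 2 with no filter or no variance trend, and 10 or 11 without any 1 of the 10-week pools. Pgam2, a muscle glycolysis gene, had the largest muscle difference (-3.27, limma adjusted p = 0.0365), and it had -3.08 without 5-week pool 1 (adjusted p = 0.0937), -2.79 without 5-week pool 3 (0.117) and -1.97 without 10-week pool 1 (0.0392). The call was also lost with an offset of 1 (-3.76, adjusted p = 0.0557), no filter (0.0729), no variance trend (0.0555) and a robust variance model (0.154), and the last 3 left the difference at -3.27. Without 10-week pool 1, the pool with little muscle signal, Thbs4 had -2.90. Its 10-week signals were all under the first quartile of their arrays, so leaving out 1 of these pools could hardly move its difference. Nothing on muscle is read from that value. Of 8 tendon and cartilage markers only 3 passed the filter, with a median log2 difference of 0.10. Of these Col11a1, a cartilage collagen gene, fell (-0.92, limma adjusted p = 0.00993) and was under the filter with the dimmest 60% left out. Tnmd had 0.10 (adjusted p = 0.772) and Fmod had 0.30 (adjusted p = 0.211), with 1 of the 5 Fmod probe sets called higher. The sums of the list were 981 to 1097 at 10 weeks and 920 to 1213 at 5 weeks. The part of muscle or tendon in the Thbs4 signal was not tested.

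**Figure D3:**
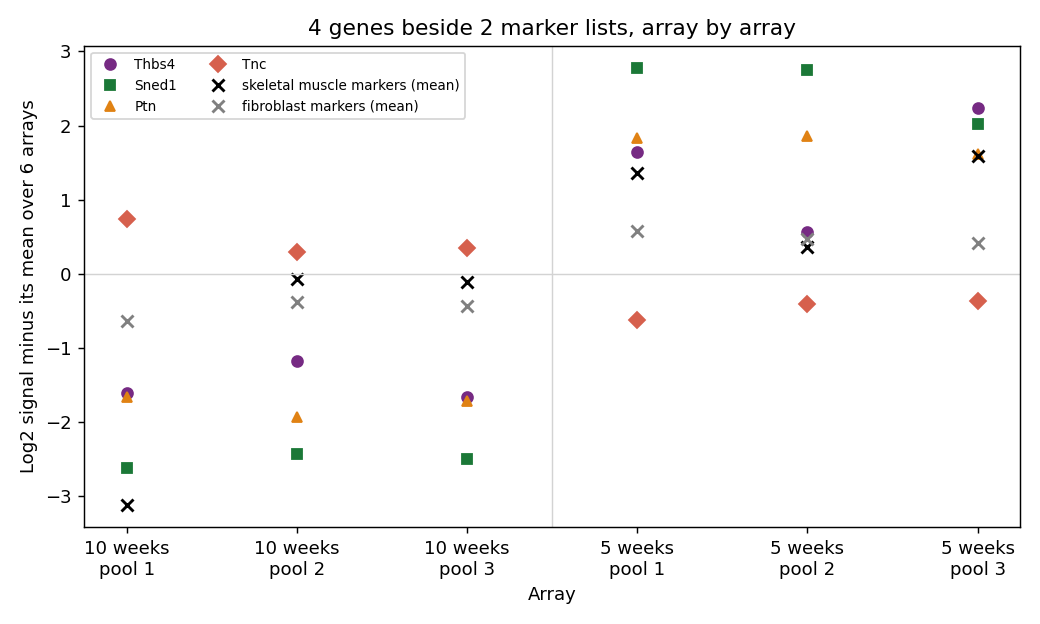
Log2 signal in each of the 6 arrays, minus its mean over the arrays, for Thbs4, Sned1, Ptn and Tnc (brightest probe set of each) and for the mean of the skeletal muscle and fibroblast marker lists. Ptn is nearly level within each age, while the muscle list drops in 10-week pool 1 and is lowest among the 5-week pools in pool 2, as Thbs4 is.

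Relatives of these genes that were not members were mostly lower at 10 weeks as well. Of 32 listed, 21 passed the filter, and of these 14 fell, 1 rose and 6 did not pass the test (limma, Benjamini-Hochberg adjusted p under 0.05), where 18.7% of all genes tested fell and 15.3% rose. Their median log2 difference was -0.78. Thbs3, a pentameric thrombospondin, had 110.9, 200.6 and 181.1 in the 10-week pools, against 774.3, 575.0 and 695.3 in the 5-week pools, and fell by 1.88 on the log2 scale (adjusted p = 0.000347). Tnxb, a tenascin of connective tissue, had a difference of -1.87 (adjusted p = 0.0108) that did not pass with a robust variance model (adjusted p = 0.0521). Its signal was 387.6 in 10-week pool 1 and 1268.5 and 1509.6 in the other two, so the 10-week pools were spread widely. Fst, the activin antagonist follistatin, fell by 1.70 (adjusted p = 7.26e-05), with 327 ± 47.2 at 10 weeks and 1130 ± 27.0 at 5 weeks (SD, n = 3 each). The fibulin genes Fbln2 and Fbln5, whose proteins sit on elastic fibres and basement membranes, had differences of -1.46 (adjusted p = 0.000192) and -1.45 (adjusted p = 0.00151). Ccn5, a CCN protein gene, fell by 1.44 (adjusted p = 0.000151).

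Ccn2, connective tissue growth factor, was the single relative that rose by its brightest probe set. It had 1007.7, 1364.1 and 1797.4 in the 10-week pools, against 710.3, 435.8 and 744.4 in the 5-week pools, a log2 difference of 1.10 ± 0.24 (SE, adjusted p = 0.01). The pools did not overlap, and the 10-week ones were widely spread. The brightest relatives that did not pass the test were Smoc2 and Fbln1. Smoc2 had 0.22 ± 0.22 (SE, adjusted p = 0.49), with 1 of its 2 probe sets called higher. Fbln1 had -0.50 ± 0.18 (SE, adjusted p = 0.0752), which passed only without 5-week pool 2 (adjusted p = 0.0242). With the mean of its probe sets Fbln1 had -0.13 (adjusted p = 0.57). The other relatives below were looked up after their values were seen. Mdk, midkine, the closest relative of pleiotrophin, had 559.0, 549.3 and 532.6 at 10 weeks, against 970.4, 884.4 and 930.8 at 5 weeks, and fell by 0.73 (adjusted p = 0.00151). Comp, the cartilage thrombospondin, was dim, with 113 ± 16.5 at 10 weeks and 102 ± 20.9 at 5 weeks (SD, n = 3 each, adjusted p = 0.695).

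Receptors and binding partners included calls in both directions. Of 30 listed, 29 passed the filter, and 6 rose, 9 fell and 14 did not pass the test, where 15.3% of all genes tested rose and 18.7% fell, with a median log2 difference of 0.07. Among those that rose, Cd47, the thrombospondin-1 receptor that also restrains phagocytosis, had 7777.8, 5892.3 and 6280.1 in the 10-week pools, against 2982.0, 2716.9 and 2649.8 in the 5-week pools (1.24 ± 0.12, SE, adjusted p = 0.000186). In Cd47, 2 of its 4 probe sets were called, and the mean of the 4 gave 0.56 (adjusted p = 0.00442). The integrin genes Itga8, Itga6 and Itgb8 rose by 1.46, 1.35 and 1.07 (adjusted p = 0.00241, 5.89e-05 and 0.00628). The subunit of Itga8 takes part in a receptor for tenascin-C and osteopontin, and that of Itga6 in laminin receptors. The heparan sulphate proteoglycan gene Sdc4 rose by 1.15 (adjusted p = 0.000981), and Ltk, a receptor kinase related to ALK, by 1.11 (adjusted p = 0.00141).

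Among the receptors that fell, Itgb3, the beta-3 integrin subunit that pairs with the alpha-v chain, had 67.8, 117.3 and 118.3 in the 10-week pools, against 398.2, 553.4 and 297.9 in the 5-week pools (-1.74 ± 0.25, SE, adjusted p = 0.00126). Lrp1, the endocytic receptor that clears thrombospondins, fell by 1.72 (adjusted p = 2.85e-05), with 1303 ± 53.3 at 10 weeks and 4372 ± 101 at 5 weeks (SD, n = 3 each). Cacna2d1, a calcium channel subunit that binds thrombospondins, fell by 1.40 (adjusted p = 0.00146), with a call in 1 of its 2 probe sets. Nrp1, a co-receptor for VEGF and semaphorins, fell by 1.09 (adjusted p = 0.000229) and the syndecan gene Sdc1 fell by 0.85 (adjusted p = 0.000528). Cd44, a receptor for hyaluronan and osteopontin, fell by 0.75 (adjusted p = 0.00137). The brightest that did not pass the test were Cd36, the thrombospondin-1 receptor of fat and vessel cells (0.25 ± 0.10, SE, adjusted p = 0.0832), and Calr, calreticulin (0.10 ± 0.08, SE, adjusted p = 0.398). Ptprz1, the pleiotrophin receptor, was looked up after its values were seen. It had 398.8, 152.4 and 265.7 at 10 weeks, against 122.9, 231.6 and 184.5 at 5 weeks, with overlapping ages (adjusted p = 0.296), and Alk was under the filter.

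In the latent TGF-beta pathway, which thrombospondin-1 can activate, 3 of 15 genes rose, 5 fell and 7 did not pass the test, where 15.3% of all genes tested rose and 18.7% fell, with a median log2 difference of -0.09. The ligand gene Tgfb2 had 1695.3, 1230.4 and 1359.0 in the 10-week pools, against 576.8, 418.5 and 425.0 in the 5-week pools, and rose by 1.53 (adjusted p = 0.000318). Tgfb3 rose by 1.22 (adjusted p = 0.000807) and the receptor gene Tgfbr1 by 0.61 (adjusted p = 0.00999), with a call in 1 of the 3 Tgfbr1 probe sets. The latent binding protein genes Ltbp4, Ltbp3 and Ltbp2 fell, with differences of -1.23, -0.78 and -0.55 (adjusted p = 0.00041, 0.0108 and 0.0352), and Ltbp3 was called in 1 of its 2 probe sets. The receptor genes Tgfbr3 and Tgfbr2 fell, with differences of -0.66 and -0.38 (adjusted p = 0.00659 and 0.0162), each in 1 of 2 probe sets. With the mean of a gene's probe sets, Ltbp3 had -0.45 (adjusted p = 0.0308), while the calls of Tgfbr3 (-0.30, adjusted p = 0.12) and Tgfbr2 (-0.27, adjusted p = 0.076) were lost, which left 3 genes that fell. The Ltbp2 call was lost without 10-week pool 1 (0.111), 2 (0.061) or 3 (0.065) and without 5-week pool 2 (0.0965), with no filter (0.0555) and with quantile normalization (0.056), as adjusted p. That of Tgfbr2 was lost without 10-week pool 3 (0.0609) or 5-week pool 1 (0.0586) and with no variance trend (0.0518), so that 3 genes of this pathway fell without 10-week pool 3. Smad4 (0.13 ± 0.09, SE, adjusted p = 0.323) and Smad3 (0.04 ± 0.14, SE, adjusted p = 0.842) were the brightest that did not pass.

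**Figure D4:**
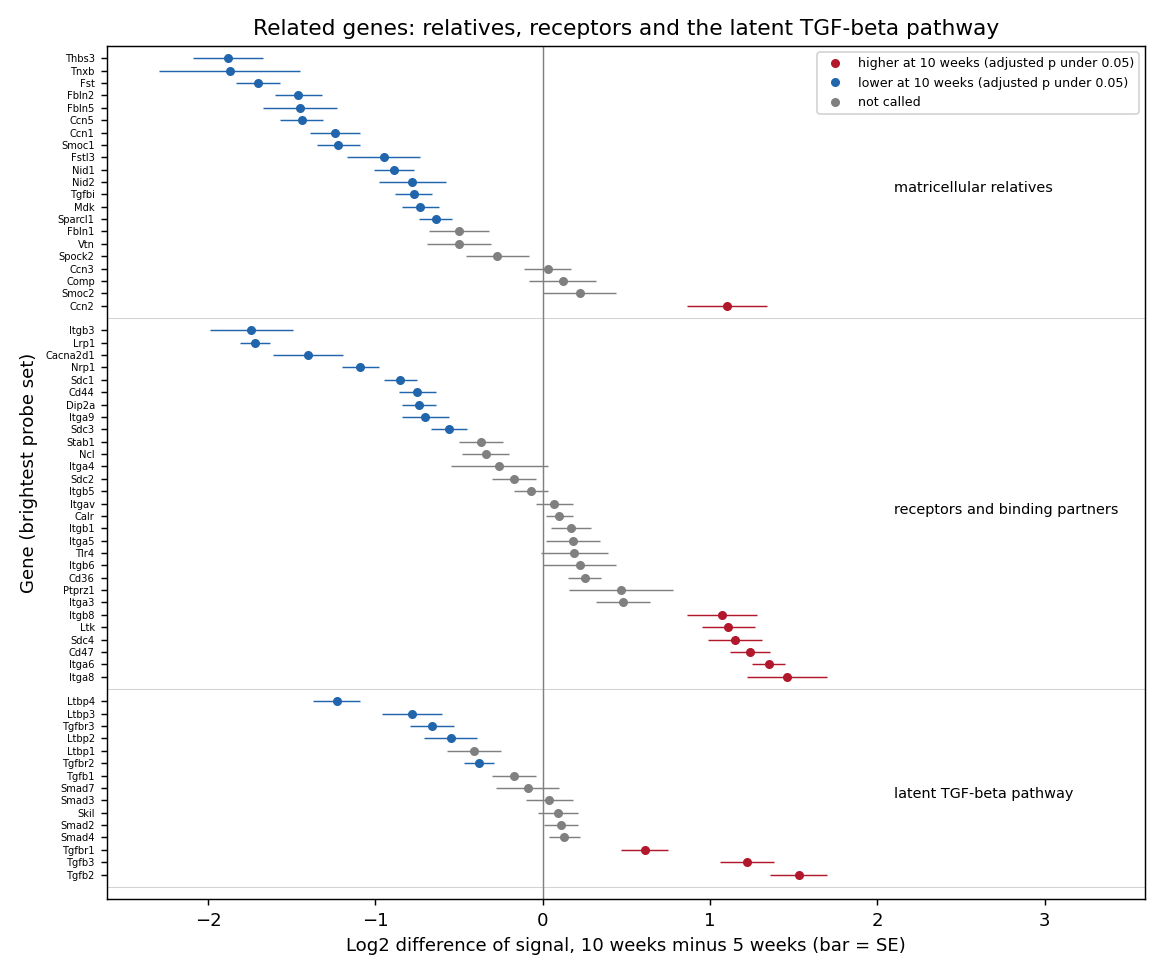
Log2 difference of signal, 10 weeks minus 5 weeks (bar = SE), for the genes tested in 3 lists of relatives, receptors and the latent TGF-beta pathway, by limma's call (red higher, blue lower, grey not called). Relatives are mostly lower at 10 weeks (14 of 21), while receptors (6 higher, 9 lower) and the TGF-beta pathway (3 higher, 5 lower) lie on both sides of 0.

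The genes nearest to the mean profile of the 8 members that were lower were found by the distance of their centred log2 profile over the 6 arrays. That mean profile was -1.10, -1.04 and -1.07 in the 10-week pools, against 1.19, 0.97 and 1.04 in the 5-week pools. The nearest was Frem1, which encodes an extracellular matrix protein of basement membranes, at a distance of 0.14 on the log2 scale, with 88.0, 96.0 and 89.7 at 10 weeks, against 562.1, 478.8 and 451.4 at 5 weeks. It was followed by Srpx (0.25), Ift122 (0.28), Tmem158 (0.28) and Vwf (0.29), the von Willebrand factor gene of endothelium. Their log2 differences ran from -2.28 to -1.97. They lie near the difference of the mean profile because they were picked by that distance. The members averaged in it ran from -0.52 (Sparc) to -5.03 (Sned1), so these genes are like the mean and not like each member.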

How the data were processed

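Total RNA of mammary gland was labelled with biotin and hybridised to 6 mouse arrays, 1 pool of 3 animals each, per the labels and the series' design text. The authors deposited a linear signal intensity for each probe set. The values show that the mean of an array, once 2% of its probe sets were trimmed at either end, was 500. The authors' signal algorithm, detection calls and scan batches are not given in the sources used here. Replicate numbers follow accession order and pair no pools, and p-values cover pool and array spread together.

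Symbols were updated through gene identifiers in RefSeq's GRCm38.p6 table (34741 of 34945 matched). Signals under 1 were set to 1, log2(signal + 32) was taken, which understates differences of dim genes, and the dimmest 40% of probe sets were left out. limma 3.58.1 (R 4.3.3; lmFit, eBayes with trend, 4 residual degrees of freedom, two-sided) was fitted to 27022 probe sets, with Benjamini-Hochberg adjustment over all of them at 0.05; the brightest probe set stood for each gene. A permutation of 3 against 3 pools cannot give a p under 0.1. The steps were tested on simulated data with independent noise for each probe set. That test does not cover genes that shift together within a pool.

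The members, lists and naming rule were chosen with earlier results of these data known. The rule names every member, up to 6 called genes per direction and the 2 brightest uncalled genes of each related list, the largest difference of each marker list that moved with the members, and the 5 nearest profiles. Basal and macrophage markers were also listed: 4 rose and 2 fell of 8, and 3 rose and 3 fell of 8. The 4 basal markers became 2 without 5-week pool 2, and the 2 that fell became 1 without any other 1 pool, with no filter, with the dimmest 60% left out or with median centring. The 3 macrophage markers that rose became 1 without 10-week pool 1, 10-week pool 3 or 5-week pool 1, with no filter or with no variance trend, and those that fell ran from 2 to 4 over all settings. The summed signals of the marker lists add different probe sets, so the bright ones weigh most in them. Apart from these sums, and brightness used to pick, filter or describe probe sets, levels are not compared between probe sets. The promoter motifs were chosen after the expression values were seen. Protein sequences were not used here. Alternatives changed the offset, filter, normalization, variance model, array weights and probe set rule, and left out each pool in turn. Plots used Python 3.11.15 and matplotlib 3.10.9.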

Additional observations from a re-analysis of the deposited data

How the results depend on the processing

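Among 144 alternative values of the counts and of the members' median difference, 142 stayed within 1.5 times the reported count or within the spread of pools. The exceptions were the 5 TGF-beta pathway genes that fell, which became 3 with the mean of a gene's probe sets, and ran from 3 to 5 when 1 pool was left out. The members' median ran from -1.62 to -1.44 without 1 pool, the genes called higher from 1399 to 1762 and the genes called lower from 1887 to 2033. Without 1 pool, the 14 relatives that fell ran from 13 to 15, and the receptors from 6 to 7 higher and 9 to 10 lower. The receptors that fell numbered 8 with the dimmest 60% left out and 11 with the mean of a gene's probe sets. Of 144 alternative values of single members 9 moved by more than the spread of pools and none changed sign. The changes of filter and of variance model cannot move a member's log2 difference or the members' median, so those values were fixed in advance. The members were also picked on this difference, so its steadiness is not read as support. The 9 that moved concern the offset (Sned1, Thbs4, Ptn), the mean of probe sets (-1.76 for Thbs2, -0.41 for Sparc, -2.85 for Ptn) and quantile normalization (-0.69 for Sparc). Thbs4 was under the filter with an offset of 1, with the dimmest 60% left out, and without 5-week pool 1 or 3, and its differences there were taken before the filter. Of 526 values of named related genes, 12 lost their call, in Tnxb, Ltbp2, Tgfbr2 and Tgfbr3, and 1 gained it. No detection call was used, so signals under the first quartile of an array cannot be told from background. No paired analysis was possible because the pool numbers follow accession order only.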
